A study of Mus musculus with 77 samples.

Results

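Transcripts of 10 hepatic lipid droplet genes were followed: 4 perilipins that coat the droplet (Plin2, Plin3, Plin4 and Plin5), 3 CIDE proteins that act where droplets touch (Cidea, Cideb and Cidec), the droplet enzyme Hsd17b13, the triglyceride lipase Pnpla2 and its inhibitor G0s2. These 10 genes were chosen by name and function out of 55487 genes in the count table, with earlier results of these data known. All 10 were among the 14904 genes that passed the filter on low counts. RNA of the left lateral lobe was sequenced from 77 male C57BL/6JRj mice in 10 groups, 1 library per mouse, bought at 5 to 6 weeks of age. All DIO-MASH mice (diet-induced obesity with metabolic dysfunction-associated steatohepatitis) had been fed a diet of 40 kcal-% fat, 22% fructose, 10% sucrose and 2% cholesterol for 34 weeks and had been selected on a liver biopsy. They then received semaglutide, a long-acting GLP-1 receptor agonist, at 123 µg per kg on the same diet (7, 8 and 8 mice at 8, 16 and 24 weeks), a change of diet back to chow with vehicle (chow reversal: 7, 8 and 8 mice), or vehicle on the same diet (9, 8 and 7 mice). A group of 7 mice that had only ever eaten chow and received vehicle was sampled at 24 weeks.

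A lipid droplet is a core of triglyceride and cholesteryl ester under a single layer of phospholipid, and the perilipins on that layer control which enzymes reach the core. Cidea and Cidec gather at contacts between droplets and let lipid flow from the smaller into the larger one, so that large droplets form. Both are low in lean mouse liver and are known as genes that fatty liver switches on, Cidec under control of Pparg. Pnpla2 (adipose triglyceride lipase) takes the first fatty acid off triglyceride, and G0s2 binds and blocks it. Cideb, by contrast, is a gene of the normal hepatocyte that acts in loading lipid onto VLDL.

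The starts of Plin2, Plin4 and Cidec, which fell with semaglutide, are shown to place these results on the genome, as windows of 250 bases before to 50 bases after the RefSeq start on GRCm38.p6, read on the minus strand from 5′ to 3′. Windows were found for 9 of the 10 genes, all but Cidea. Capitals mark the nuclear receptor core motif AGGTCA and the E-box CACGTG, each searched on both strands. On the other strand the core motif reads TGACCT.
Plin2, chr4:86670010-86670309: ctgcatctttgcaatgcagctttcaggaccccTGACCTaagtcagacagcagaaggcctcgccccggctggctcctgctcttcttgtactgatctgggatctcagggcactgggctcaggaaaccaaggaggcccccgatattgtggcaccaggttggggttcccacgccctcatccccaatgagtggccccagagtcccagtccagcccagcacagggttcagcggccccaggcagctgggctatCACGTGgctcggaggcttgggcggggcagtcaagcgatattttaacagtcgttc
Plin4, chr17:56109733-56110032: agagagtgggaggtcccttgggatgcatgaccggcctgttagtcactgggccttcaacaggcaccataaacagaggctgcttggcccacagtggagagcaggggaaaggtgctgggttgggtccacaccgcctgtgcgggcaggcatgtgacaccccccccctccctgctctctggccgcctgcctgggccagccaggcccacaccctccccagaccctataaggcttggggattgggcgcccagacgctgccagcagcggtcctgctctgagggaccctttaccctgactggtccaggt
Cidec, outer start, chr6:113435711-113436010: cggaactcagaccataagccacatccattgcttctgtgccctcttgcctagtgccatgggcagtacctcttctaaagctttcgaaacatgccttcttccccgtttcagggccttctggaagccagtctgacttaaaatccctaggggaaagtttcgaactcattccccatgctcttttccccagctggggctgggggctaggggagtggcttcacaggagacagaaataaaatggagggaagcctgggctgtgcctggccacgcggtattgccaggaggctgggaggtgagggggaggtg
Cidec, inner start, chr6:113434715-113435014: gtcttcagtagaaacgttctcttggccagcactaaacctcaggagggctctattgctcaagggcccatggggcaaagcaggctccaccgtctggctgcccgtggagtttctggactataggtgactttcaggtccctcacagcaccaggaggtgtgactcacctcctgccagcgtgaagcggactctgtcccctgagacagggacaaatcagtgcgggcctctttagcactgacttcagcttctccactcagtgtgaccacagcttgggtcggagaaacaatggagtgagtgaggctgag
In the Plin2 window the core motif lay in its reverse reading at −218 and the E-box at −4, counted from the start. The same core motif stood in the windows of Hsd17b13 and Plin5. The windows of Plin4, Cidec, Plin3, Cideb, Pnpla2 and G0s2 held neither motif. Of all 32851 windows of this length, 16.3% held AGGTCA and 7.15% held CACGTG. The DR1 element, a direct repeat of the core motif spaced by 1 base, stood in 0.0396% of windows and in none of the 9 genes. A match of letters is a description and not evidence of binding, and its absence says nothing of sites outside the window.

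On GRCm38, Plin2 lies on chromosome 4 from 86648386 to 86670060 (minus strand), Cidec on chromosome 6 from 113424634 to 113435760 (minus strand), Cidea on chromosome 18 from 67343604 to 67367785 (plus strand) and Cideb on chromosome 14 from 55754050 to 55758458 (minus strand). Plin4 (56100591 to 56109803) and Plin5 (56111601 to 56117596) lie close together on the minus strand of chromosome 17, and Plin3 (56277476 to 56292873) lies further off on the same strand. Hsd17b13 lies on chromosome 5 from 103955440 to 103977410 (minus strand), Pnpla2 on chromosome 7 from 141455198 to 141460743 (plus strand) and G0s2 on chromosome 1 from 193272161 to 193273217 (minus strand). All 10 are protein-coding genes. Plin4 overlaps Hdgfl2, Cidea overlaps B430212C06Rik, Cideb overlaps Nop9 and G0s2 overlaps Lamb3, each on the opposite strand. The library kit was directional, but the strand setting of the counting is not given in the sources used here, so reads of these 4 genes may include some of their partners.

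Depth ranged from 8883150 to 37631072 counts per library (median 16406937), and levels are given as CPM (counts relative to library size, scaled by edgeR's TMM factors). Folds are log2 fold changes from edgeR's quasi-likelihood test, with the standard error (SE) and a p adjusted by Benjamini-Hochberg over 14904 genes, and a gene was called past 0.05. By their library numbers, 3 libraries (semaglutide at 16 weeks, mice 7 and 8, and at 24 weeks, mouse 8) lay outside the run of the other 74 and are called the second series. 1 chow reversal library (24 weeks, mouse 8) carried transcripts of adipocytes: Adipoq stood at 19.4 CPM and Plin1, the adipocyte perilipin, at 8.33 CPM, against at most 0.671 and 0.332 CPM in the other 76 libraries. The sum of 5 skeletal muscle markers was 877 CPM in mouse 7 of semaglutide at 16 weeks and at most 1.79 CPM elsewhere. Scaled to library totals in place of TMM, the median of all genes shifted by −0.13 to −0.24 for semaglutide, by −0.25 to −0.31 for chow reversal and by 0.40 for vehicle over chow on the log2 scale. Hepatocyte markers were present throughout, with a summed level of 47905 CPM or more in every library.

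Per kilobase of exon, Hsd17b13 (181 CPM per kb over the 77 libraries), Cideb (175) and Plin2 (166) had the highest levels. G0s2 followed at 76.4 CPM per kb, then Pnpla2 at 31.7, Cidec at 26.99, Plin5 at 26.4 and Plin3 at 17.4 CPM per kb. Cidea at 10.9 and Plin4 at 8.99 CPM per kb were lowest. Variation between groups followed a different order. The highest over the lowest group mean was 37.59 for Cidea, 32.3 for Cidec and 10.6 for Plin4, and between 1.24 (Pnpla2) and 2.02 (G0s2) for the other 7. When the 10 group means of a gene were ranked, few neighbours stood apart by more than the larger of their SDs. Such gaps were vehicle at 8 over vehicle at 24 weeks for Plin4, vehicle at 24 over semaglutide at 16 weeks and semaglutide at 24 over 8 weeks for Cidea, and vehicle at 24 over chow reversal at 24 weeks and semaglutide at 8 weeks over chow-fed for Cidec. In all other neighbouring pairs the gap was within the larger SD.

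**Figure D1:**
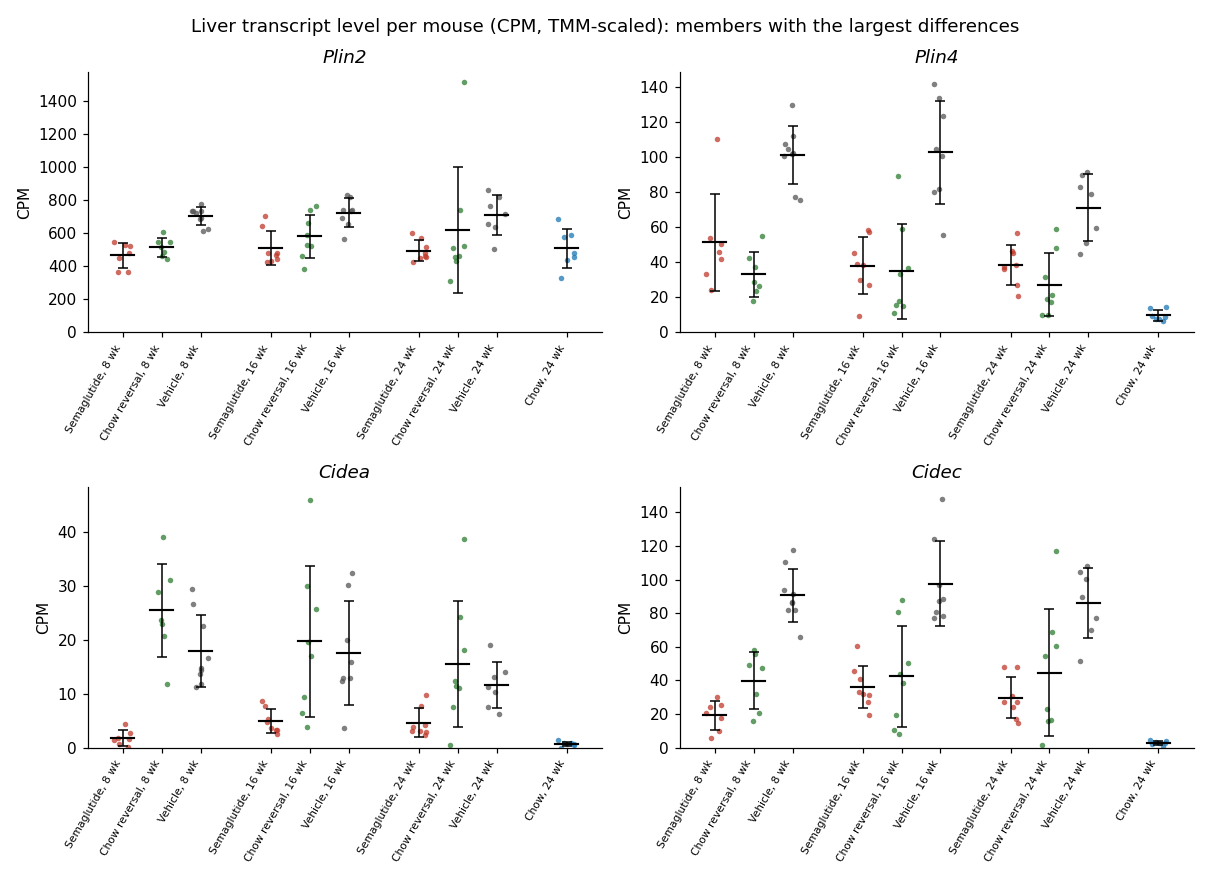
Level of Plin2, Plin4, Cidea and Cidec in each liver (vertical axis, TMM-scaled CPM) by treatment and week; points are mice, lines the group mean and bars the SD. Cidec lies between 5.67 and 60.2 CPM in all semaglutide mice and between 51.7 and 148 CPM in all vehicle mice, and chow-fed mice are at or below 4.46 CPM. 1 chow reversal mouse at 24 weeks stands at 1510 CPM of Plin2.

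Semaglutide was compared with vehicle to ask which droplet genes differed when the drug was given on the unchanged diet. Cidec, Cidea and Plin2 were lower at each of the 3 times and Plin4 at 16 and 24 weeks. Of the 10 genes, 3 fell at 8 weeks (against 3.51% of all genes lower), 5 fell at 16 weeks (5.8%) and 4 fell at 24 weeks (13.6%), when Cideb alone rose (against 10.8% of all genes higher). Hsd17b13, Pnpla2, G0s2 and Plin5 passed at none of these times.

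Plin2, the perilipin of hepatocytes and of most other cells, which is stable only when bound to droplets, had 367, 477 and 544 CPM (lowest, median and highest) in semaglutide mice at 8 weeks, against 612, 721 and 777 CPM in vehicle mice. All 7 treated mice lay under the vehicle range, and the change of Plin2 on the log2 scale was −0.59 (SE 0.17, adjusted p = 0.020, edgeR). At 16 weeks semaglutide mice had 422, 473 and 703 CPM and vehicle mice 561, 736 and 829.9 CPM, with overlap: 6 of 8 treated mice lay below every vehicle mouse and the others, mice 2 and 4, at 639.6 and 703 CPM. The change was −0.51 (SE 0.16, adjusted p = 0.032, edgeR). At 24 weeks the values were 425, 469 and 599.9 CPM in semaglutide mice and 505, 717 and 862 CPM in vehicle mice, with 5 of 8 below all vehicle mice and a change of −0.52 (SE 0.17, adjusted p = 0.018, edgeR). Without the second-series libraries the call at 16 weeks ended (−0.44, adjusted p = 0.15, edgeR), as it did in 6 of 16 fits that left out 1 mouse and with sets of neighbouring library numbers as a covariate (−0.47, adjusted p = 0.10), called library-number sets. The call at 8 weeks ended without semaglutide mouse 4 (−0.55, adjusted p = 0.060, edgeR). With no filter on low counts the calls at 8 and 16 weeks both ended (adjusted p = 0.056 and adjusted p = 0.055, edgeR). In a fit without the chow reversal library with adipocyte transcripts, chosen after the data were seen, the calls held at 8, 16 and 24 weeks. The changes there were −0.59, −0.50 and −0.52 (SE 0.13 each, adjusted p = 0.0018, adjusted p = 0.0058 and adjusted p = 0.0023, edgeR).

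Plin3, a perilipin that sits in the cytosol and moves onto small new droplets, had 42.6, 62.2 and 80.6 CPM in semaglutide mice at 16 weeks and 64.4, 85.7 and 90.4 CPM in vehicle mice. The groups overlapped, with 5 of 8 semaglutide mice lower than the whole vehicle group. The change of −0.37 (SE 0.10, adjusted p = 0.012, edgeR) lost its call without the second series (−0.25, adjusted p = 0.13), whose mouse 7 had the lowest value of the group. It also missed the threshold with library-number sets in the fit (−0.23, adjusted p = 0.14) and with only the compared groups (−0.36, adjusted p = 0.11, edgeR). At 8 weeks Plin3 differed by −0.17 (adjusted p = 0.37, edgeR) and at 24 weeks by −0.15 (adjusted p = 0.31), neither past the threshold. Scaled to library totals, the 24-week difference was −0.37 and passed (adjusted p = 0.010, edgeR).

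Plin4, a perilipin best known from adipocytes and muscle with a long repeat that binds the droplet surface, had 24.0, 46.0 and 110.1 CPM in semaglutide mice at 8 weeks, against 75.7, 102 and 129.7 CPM in vehicle mice. Mouse 1 at 110.1 CPM lay within the vehicle range and the other 6 lay below it. The change of −0.98 (SE 0.32, adjusted p = 0.053, edgeR) just missed the threshold, and passed in DESeq2 (adjusted p = 0.030) and without mouse 1 (−1.29, adjusted p = 0.012, edgeR). At 16 weeks Plin4 had 9.61, 38.8 and 58.2 CPM with semaglutide and 55.7, 103 and 142 CPM with vehicle, a fall of 2.69-fold (log2 −1.43, SE 0.32, adjusted p = 0.0020, edgeR) with 6 of 8 mice below all vehicle mice. At 24 weeks it had 20.6, 37.9 and 56.4 CPM with semaglutide and 44.7, 78.7 and 91.4 CPM with vehicle, a fall of 1.84-fold (log2 −0.88, SE 0.32, adjusted p = 0.037, edgeR) with 5 of 8 below. Leaving out any of 7 single mice ended this last call, with adjusted p up to 0.082 (edgeR), as did leaving out the second series (adjusted p = 0.055), library-number sets in the fit (adjusted p = 0.061) and no filter on low counts (adjusted p = 0.063).

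Plin5, the perilipin of oxidative tissues that tethers droplets to mitochondria, averaged 63.4 ± 19.7, 57.6 ± 19.1 and 66.7 ± 32.1 CPM in semaglutide mice at 8, 16 and 24 weeks (SD, n = 7, 8 and 8). Vehicle mice averaged 54.95 ± 11.4, 66.2 ± 13.6 and 56.8 ± 21.1 CPM (SD, n = 9, 8 and 7), well within that spread. Its log2 fold changes were 0.20, −0.20 and 0.23, with 95% intervals from −0.20 to 0.61, from −0.61 to 0.21 and from −0.19 to 0.65.

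Cidea had the largest fall of the set, and it came at the first time point. In semaglutide mice at 8 weeks it had 0.115, 1.62 and 4.41 CPM, from 2 to 59 counts per library, against 11.2, 14.8 and 29.4 CPM in vehicle mice. All 7 treated mice lay below every vehicle mouse, and the fall was 10.1-fold (log2 −3.34, SE 0.49, adjusted p = 2.3e-06, edgeR). At 16 weeks the values were 2.52, 4.23 and 8.71 CPM in semaglutide mice and 3.58, 14.4 and 32.3 CPM in vehicle mice. Here the ranges overlapped with vehicle mouse 6 at 3.58 CPM, and the fall was 3.55-fold (log2 −1.83, SE 0.43, adjusted p = 0.0032, edgeR). At 24 weeks semaglutide mice had 2.35, 3.50 and 9.78 CPM and vehicle mice 6.29, 11.2 and 19.1 CPM, with 6 of 8 below all vehicle mice and a fall of 2.51-fold (log2 −1.33, SE 0.44, adjusted p = 0.020, edgeR). Without vehicle mouse 4, the highest, the 24-week value was −1.15 (adjusted p = 0.061, edgeR). The effect at 24 minus that at 8 weeks was 2.01 on the log2 scale (SE 0.65), which did not pass over all genes (adjusted p = 0.65, edgeR's quasi-likelihood test with Benjamini-Hochberg adjustment), so the effects are not shown to differ.

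Cidec separated semaglutide mice from vehicle mice without overlap at every time. Semaglutide mice had 5.67, 20.7 and 30.3 CPM at 8 weeks, against 65.5, 86.7 and 118 CPM in vehicle mice, a fall of 4.74-fold (log2 −2.25, SE 0.41, adjusted p = 0.00013, edgeR). At 16 weeks they had 19.2, 32.5 and 60.2 CPM and vehicle mice 77.4, 88.0 and 148 CPM, a fall of 2.703-fold (log2 −1.43, SE 0.38, adjusted p = 0.0085, edgeR). At 24 weeks the values were 14.9, 27.4 and 48.2 CPM with semaglutide and 51.7, 89.6 and 108 CPM with vehicle, a fall of 2.87-fold (log2 −1.52, SE 0.39, adjusted p = 0.0027, edgeR). All 23 semaglutide mice were thus below every vehicle mouse of their own time. Without the second series the 16-week value was −1.28 and missed the threshold (adjusted p = 0.060, edgeR).

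Cideb, with 191, 294 and 357 CPM in semaglutide mice at 24 weeks against 183, 206 and 271 CPM in vehicle mice, overlapped between groups, with 5 of 8 treated mice above every vehicle mouse. It rose by 0.39 on the log2 scale (SE 0.13, adjusted p = 0.021, edgeR). Scaled to library totals this was 0.15 and did not pass (adjusted p = 0.28), and the call also ended without semaglutide mouse 2 (adjusted p = 0.056) or vehicle mouse 7 (adjusted p = 0.053), with no filter (adjusted p = 0.055) and with only the compared groups (adjusted p = 0.057). At 8 and 16 weeks the differences of 0.17 and 0.11 did not pass (adjusted p = 0.50 and adjusted p = 0.59, edgeR).

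**Figure D2:**
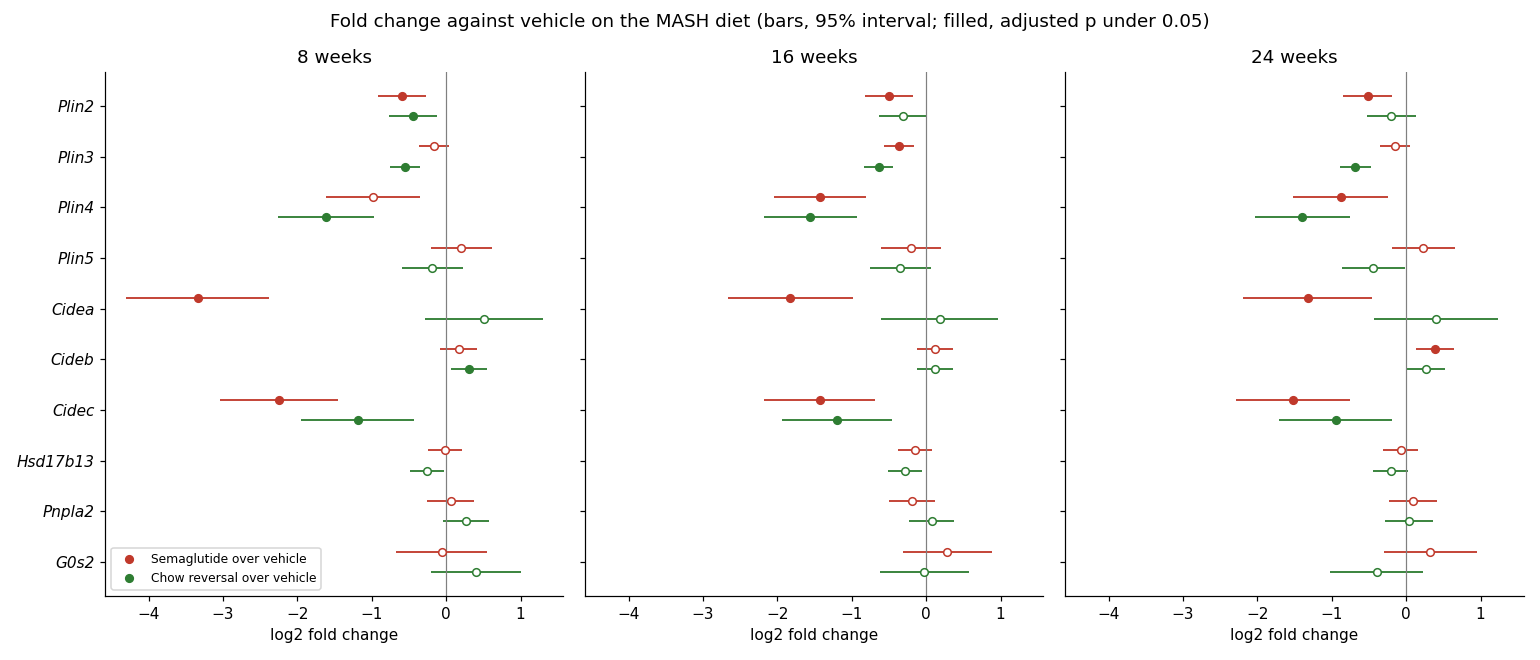
Log2 fold change of each of the 10 genes over vehicle (horizontal axis) for semaglutide (upper point) and chow reversal (lower point) at 8, 16 and 24 weeks; bars are 95% intervals and filled points passed an adjusted p of 0.05. Cidea is at −3.34, −1.83 and −1.33 for semaglutide and at 0.51, 0.18 and 0.40 for chow reversal.

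Chow reversal was set against the same vehicle mice, so its values and those of semaglutide share their controls. Plin3, Plin4 and Cidec were lower at all 3 times, whereas Cidea passed at none and its fold changes lay above 0. Plin5 also passed at none (−0.19, −0.35 and −0.44, adjusted p = 0.51, adjusted p = 0.22 and adjusted p = 0.10, edgeR). Scaled to library totals, it passed as lower at all 3 times (−0.47, −0.57 and −0.74, adjusted p = 0.046, adjusted p = 0.015 and adjusted p = 0.0019). Without chow reversal mouse 2 it passed at 24 weeks (adjusted p = 0.038, edgeR). Of the 10 genes, 4 fell at 8 weeks (against 17.9% of all genes lower) and Cideb rose (14.2% higher), 3 fell at 16 weeks (16.2%) and 3 fell at 24 weeks (19.1%).

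Plin3 had 46.3, 50.4 and 61.8 CPM in chow reversal mice at 8 weeks, against 64.3, 81.1 and 84.7 CPM in vehicle mice. At 16 weeks it had 47.9, 50.5 and 62.5 CPM with chow reversal against 64.4, 85.7 and 90.4 CPM with vehicle, and at 24 weeks 38.7, 51.97 and 64.3 CPM with chow reversal against 66.2, 80.4 and 101 CPM with vehicle. At each time every chow reversal mouse lay under the whole vehicle group. On the log2 scale the changes of Plin3 were −0.55 (SE 0.10, adjusted p = 2.3e-05), −0.64 (adjusted p = 7.9e-07) and −0.68 (adjusted p = 2.2e-07, all edgeR).

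Plin4 had 17.7, 29.01 and 55.05 CPM in chow reversal mice at 8 weeks, all below the vehicle range of 75.7 to 129.7 CPM. It fell 3.06-fold at 8 weeks (log2 −1.61, SE 0.33, adjusted p = 9.4e-05, edgeR). At 16 weeks it had 10.9, 25.6 and 89.4 CPM and at 24 weeks 10.1, 20.3 and 59.1 CPM. The highest chow reversal mice reached into the vehicle ranges, and 6 of 8 at each time stayed below them. The falls were 2.95-fold (log2 −1.56, adjusted p = 8.4e-05) and 2.63-fold (log2 −1.39, adjusted p = 0.00044, edgeR).

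Cidec had 15.6, 47.2 and 58.1 CPM in chow reversal mice at 8 weeks, again all below the vehicle mice, and fell 2.28-fold (log2 −1.19, SE 0.39, adjusted p = 0.014, edgeR). The spread widened later, to 7.94, 41.3 and 88.0 CPM at 16 weeks and to 1.53, 38.96 and 117 CPM at 24 weeks. At 24 weeks the lowest mouse (mouse 7) was at the level of chow-fed mice and the highest (mouse 8) was the library with adipocyte transcripts, above every vehicle mouse. The changes were −1.20 (adjusted p = 0.011) and −0.95 (adjusted p = 0.047, edgeR), and the 24-week call was lost in 9 of 15 fits that left out 1 mouse, with adjusted p up to 0.10, and with only the compared groups (adjusted p = 0.20) or no filter (adjusted p = 0.079, edgeR). Without the library with adipocyte transcripts the 24-week change was −1.33 (adjusted p = 0.0054, edgeR).

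Plin2 fell at 8 weeks (441, 517 and 608 CPM in chow reversal mice, against 612, 721 and 777 CPM in vehicle mice). The groups did not overlap, and the log2 fold change was −0.45 (SE 0.17, adjusted p = 0.032, edgeR), which missed the threshold in 6 of 16 fits that left out 1 mouse (adjusted p up to 0.084) and with no filter (adjusted p = 0.084). At 24 weeks it had 309.9, 483 and 1510 CPM in chow reversal mice, the highest in the library with adipocyte transcripts, and the difference from vehicle of −0.20 did not pass (adjusted p = 0.38, edgeR). Without that library, a fit chosen after the data were seen, Plin2 differed by −0.53 at 24 weeks (adjusted p = 0.0014, edgeR). At 16 weeks Plin2 had 385, 555 and 761 CPM with chow reversal, and its difference of −0.32 did not pass (adjusted p = 0.15, edgeR). Scaled to library totals, Plin2 passed as lower at 16 (−0.56, adjusted p = 0.0041) and 24 weeks (−0.52, adjusted p = 0.0085, edgeR).

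Cidea had 11.8, 23.6 and 39.1 CPM in chow reversal mice at 8 weeks, against 11.2, 14.8 and 29.4 CPM in vehicle mice. The ranges overlapped, and 2 of 7 chow reversal mice exceeded every vehicle mouse. At 16 weeks it had 3.75, 18.3 and 46.0 CPM and at 24 weeks 0.412, 11.9 and 38.6 CPM in chow reversal mice. The log2 fold changes over vehicle were 0.51 (SE 0.40, 95% interval −0.28 to 1.30), 0.18 (−0.61 to 0.97) and 0.40 (−0.43 to 1.23), with adjusted p = 0.34, adjusted p = 0.79 and adjusted p = 0.49 in edgeR. Cideb rose by 0.31 at 8 weeks (243, 281 and 321 CPM in chow reversal mice, 199, 219.9 and 267 CPM in vehicle mice, adjusted p = 0.047, edgeR), a call lost in 10 of 16 fits that left out 1 mouse, with scaling to library totals (0.04), with no filter (adjusted p = 0.075) and with library-number sets (adjusted p = 0.058).

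In the direct comparison of the treatments, Cidea was the gene that set semaglutide apart from chow reversal at every time. At 8 weeks it was lower with semaglutide by 14.4-fold (log2 −3.85, SE 0.51, adjusted p = 4.4e-08, edgeR), and all 7 semaglutide mice were below every chow reversal mouse. At 16 weeks the difference was 4.03-fold (log2 −2.01, SE 0.43, adjusted p = 0.00082) and at 24 weeks 3.31-fold (log2 −1.73, SE 0.43, adjusted p = 0.0039, edgeR). At these later times the ranges overlapped, and at 24 weeks chow reversal mouse 7 at 0.412 CPM was below all semaglutide mice. Cidea was the 1 gene of the 10 lower at 8 weeks (2.64% of all genes were), at 16 weeks (3.56%) and at 24 weeks (8.72%). With only these groups in the fit the 24-week call ended (−1.71, adjusted p = 0.065, edgeR).

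Plin3 ran the other way and was higher with semaglutide than with chow reversal at 8 weeks (log2 0.39, SE 0.11, adjusted p = 0.020, edgeR), where 3.52% of all genes were higher, though 3 of 14 fits that left out 1 mouse missed the threshold (adjusted p up to 0.057). It was also higher at 24 weeks (0.53, SE 0.10, adjusted p = 0.00013), with 7.77% of all genes higher and 6 of 8 semaglutide mice above every chow reversal mouse. At 16 weeks the difference of 0.27 did not pass (adjusted p = 0.074, edgeR), but it did without the second series, whose libraries are all of semaglutide mice (0.38, adjusted p = 0.011), with library-number sets (0.41, adjusted p = 0.0023) and with scaling to library totals (0.34, adjusted p = 0.037). Plin5 was higher with semaglutide at 24 weeks by 0.67 (SE 0.21, adjusted p = 0.021, edgeR), with 35.6, 53.8 and 132 CPM in semaglutide mice against 28.6, 38.1 and 67.3 CPM in chow reversal mice. This rests on semaglutide mouse 2 at 132 CPM, without which it was 0.46 (adjusted p = 0.13, edgeR), and the call also ended with only the compared groups (adjusted p = 0.11). Cidec and Plin4 did not pass between the treatments at any time: for Cidec the differences were −1.06, −0.24 and −0.57, with 95% intervals from −1.86 to −0.25, from −0.97 to 0.50 and from −1.31 to 0.17. When the fit held these groups alone, Cidec passed at 8 weeks (−1.07, adjusted p = 0.030, edgeR), and its 24-week value without the library with adipocyte transcripts was −0.19 (adjusted p = 0.75).

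**Figure D3:**
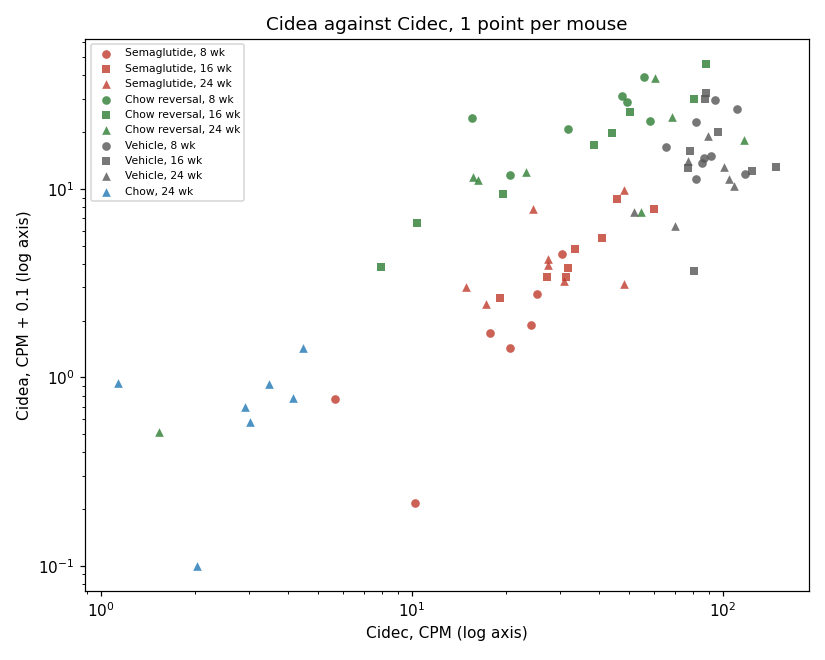
Cidea (vertical axis, CPM plus 0.1, log axis) against Cidec (horizontal axis, CPM, log axis) in the 77 livers, 1 point per mouse; colour gives the treatment and shape the week. At 8 and 16 weeks the log2 of Cidea minus Cidec is at or above −1.43 in all chow reversal mice and at or below −2.37 in all semaglutide mice, and chow-fed mice lie at the lower left with Cidec at or below 4.46 CPM.

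The balance of the 2 CIDE genes was compared within each liver. The log2 of Cidea minus that of Cidec averaged −3.59 ± 0.91 in semaglutide mice, −0.58 ± 0.58 in chow reversal mice and −2.39 ± 0.54 in vehicle mice at 8 weeks (SD, n = 7, 7 and 9). At 16 weeks it averaged −2.89 ± 0.24 in semaglutide mice, −1.06 ± 0.22 in chow reversal mice and −2.68 ± 1.03 in vehicle mice (SD, n = 8 each). At 24 weeks it averaged −2.72 ± 0.68 in semaglutide mice, −1.40 ± 0.94 in chow reversal mice and −2.92 ± 0.46 in vehicle mice (SD, n = 8, 8 and 7), and the ranges overlapped. Chow-fed mice averaged −2.15 ± 1.12 (SD, n = 7). At 8 and 16 weeks every chow reversal liver thus held more Cidea for its Cidec than every semaglutide and vehicle liver of that time, which is given as a description with no test. At 16 weeks the 8 chow reversal mice ranged from −1.43 to −0.67 and the 8 semaglutide mice from −3.19 to −2.37, with no overlap. The 8 vehicle mice of that time ranged from −4.45 to −1.45, so the highest of them lay just below the lowest chow reversal mouse. Over the 77 libraries the log2 levels of Cidea and Cidec correlated with r = 0.80, and with r = 0.72 after the group means were taken off. Plin4 and Cidec followed each other with r = 0.83 (0.67 within groups) and Plin2 and Cidec with r = 0.64 (0.61 within groups). Mice of 1 group share their treatment, and all share the scaling, so these are descriptions.

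Vehicle mice on the MASH diet were compared with mice kept on chow at 24 weeks. The vehicle mice had been selected on a liver biopsy and the chow group was not randomized, so diet and selection cannot be told apart. Of the 10 genes, 5 rose (against 25.8% of all genes higher) and Cideb fell (22.0% lower). Cidec had 51.7, 89.6 and 108 CPM in vehicle mice, against 1.13, 3.02 and 4.46 CPM in chow-fed mice, where it had 15 to 80 counts per library. The groups were far apart, and the rise was 28.2-fold (log2 4.82, SE 0.49, adjusted p = 2.3e-13, edgeR). Cidea had 6.29, 11.2 and 19.1 CPM in vehicle mice against 0, 0.673 and 1.32 CPM in chow-fed mice, where counts were 0 to 19 per library and 1 of 7 mice was at 0. It rose 17.03-fold (log2 4.09, SE 0.57, adjusted p = 6.7e-09, edgeR), also without overlap. Plin4 had 44.7, 78.7 and 91.4 CPM with vehicle and 6.58, 8.52 and 14.6 CPM with chow, a rise of 7.31-fold (log2 2.87, SE 0.36, adjusted p = 4.7e-10, edgeR).

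Smaller rises were found for the perilipins Plin3 and Plin2. Plin3 had 66.2 to 101 CPM in vehicle mice and 44.5 to 64.5 CPM in chow-fed mice, did not overlap and rose by 0.71 on the log2 scale (SE 0.11, adjusted p = 1.0e-07, edgeR). Plin2 had 505, 717 and 862 CPM in vehicle mice against 327, 479 and 683 CPM in chow-fed mice, overlapped, and rose by 0.48 (SE 0.17, adjusted p = 0.019, edgeR), or by 0.40 without chow-fed mouse 5 (adjusted p = 0.063). Cideb had 183, 206 and 271 CPM in vehicle mice and 238, 304 and 351 CPM in chow-fed mice and fell by 0.43 (SE 0.13, adjusted p = 0.0051, edgeR). Scaled to library totals this difference was −0.01 and no longer passed. Plin5, Hsd17b13, Pnpla2 and G0s2 did not pass, with log2 differences of 0.43, 0.11, 0.08 and 0.43.

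After 24 weeks both treatments still differed from lifelong chow. With semaglutide 5 of the 10 genes were higher than in chow-fed mice (17.9% of all genes were): Cidec by 9.81-fold (log2 3.29, SE 0.46, adjusted p = 3.2e-08, edgeR), Cidea by 6.79-fold (log2 2.76, adjusted p = 0.00011), Plin4 by 3.97-fold (log2 1.99, adjusted p = 5.8e-06), Plin3 by 0.56 and Plin5 by 0.66 on the log2 scale. For Cidec, Cidea and Plin4 all 8 semaglutide mice lay above every chow-fed mouse. Without semaglutide mouse 2 the value of Plin5 was 0.46 and its call ended (adjusted p = 0.11, edgeR), as it did with only the compared groups (adjusted p = 0.063). With chow reversal 3 genes were higher than in chow-fed mice (5.72% of all genes were): Cidea by 22.5-fold (log2 4.49, SE 0.57, adjusted p = 5.1e-08, edgeR), Cidec by 14.6-fold (log2 3.87, SE 0.47, adjusted p = 1.9e-08) and Plin4 by 2.78-fold (log2 1.47, SE 0.35, adjusted p = 0.0034), a call of Plin4 that ended with only the compared groups (1.47, adjusted p = 0.064, edgeR). For Cidea and Cidec 7 of 8 chow reversal mice lay above every chow-fed mouse, the exception being mouse 7 with 0.412 CPM of Cidea and 1.53 CPM of Cidec. Plin3 did not pass between chow reversal and chow (0.02, 95% interval −0.18 to 0.23), and Plin2 passed in neither comparison (−0.04 with semaglutide and 0.28 with chow reversal, the second being −0.05 without the library with adipocyte transcripts).

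**Figure D4:**
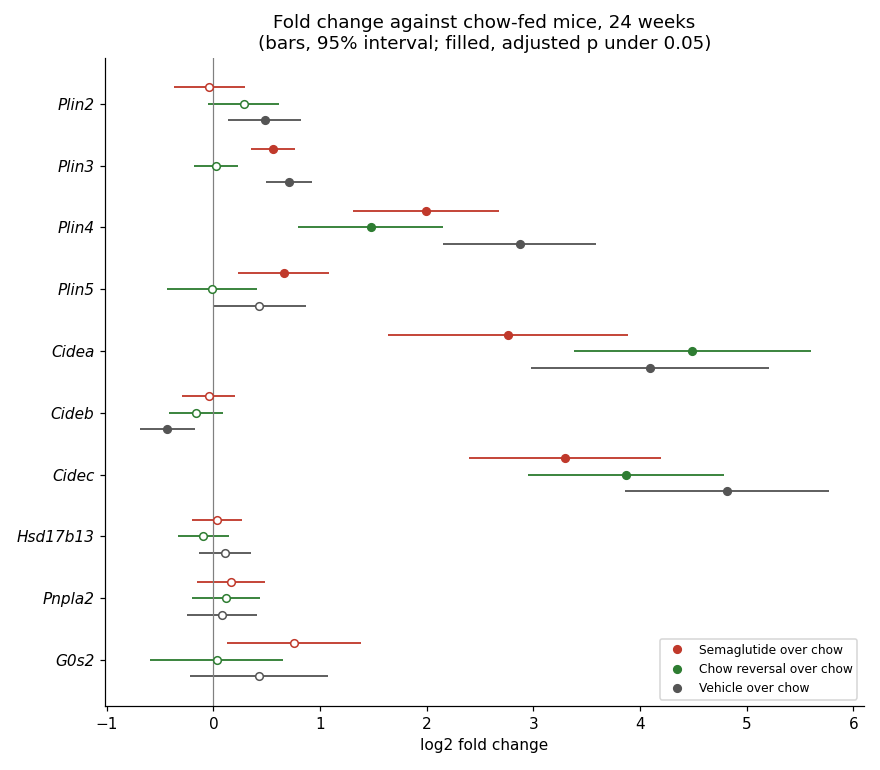
Log2 fold change over chow-fed mice at 24 weeks (horizontal axis) for semaglutide, chow reversal and vehicle (from top to bottom within each gene); bars are 95% intervals and filled points passed an adjusted p of 0.05. Cidec is at 3.29, 3.87 and 4.82 and Cidea at 2.76, 4.49 and 4.09, while Hsd17b13 and Pnpla2 lie within 0.17 of 0.

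Time on the diet alone moved none of the genes detectably. Between vehicle mice at 24 and at 8 weeks 0 of 10 passed in edgeR and 0 in DESeq2, with 0 at an unadjusted p under 0.05, while 0.792% of all genes passed in either direction. The widest differences were those of Cidea (−0.62, 95% interval −1.42 to 0.19) and Plin4 (−0.51, −1.13 to 0.11). The semaglutide effect at 24 minus 8 weeks passed for 0 genes in edgeR and 0 in DESeq2, with Cidea alone under 0.05 unadjusted, and for 0.0604% of all genes. The chow reversal effect at 24 minus 8 weeks likewise passed for 0 in edgeR and 0 in DESeq2, with 0 under 0.05 unadjusted, and for 0.215% of all genes.

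Hsd17b13, Pnpla2 and G0s2 passed in none of the comparisons in the main fit (edgeR with TMM factors, all groups together), but each passed in some alternatives. Hsd17b13, a retinol dehydrogenase bound to hepatocyte droplets, had group means between 347 and 438 CPM. Its range was 293 to 581 CPM with semaglutide, 329 to 422 CPM with chow reversal and 362 to 502 CPM with vehicle at 16 weeks. The highest semaglutide values, 581 and 541 CPM at 16 weeks and 609 CPM at 24 weeks, were the second-series libraries, the other semaglutide mice of those times being at or below 409 CPM. Without these libraries Hsd17b13 was lower with semaglutide at 16 weeks by 0.35 on the log2 scale (adjusted p = 0.029, edgeR), which was −0.15 with them (adjusted p = 0.43). With chow reversal at 16 weeks Hsd17b13 differed from vehicle by −0.28 (adjusted p = 0.060, edgeR), which passed in DESeq2 (adjusted p = 0.045), with only the compared groups (adjusted p = 0.014), without the second series (adjusted p = 0.016) and with library-number sets (adjusted p = 0.017). At 8 weeks the difference of −0.25 (adjusted p = 0.086, edgeR) likewise passed with only the compared groups (adjusted p = 0.022), without the second series (adjusted p = 0.044) and with library-number sets (adjusted p = 0.026). Scaled to library totals, Hsd17b13 passed as lower at all 3 times of chow reversal. Pnpla2 had group means from 84.4 to 105 CPM, and its differences from vehicle lay between −0.19 and 0.27 in both treatments. G0s2 had group means from 47.6 to 96.3 CPM and spread widely within groups, with 48.1, 76.7 and 218 CPM in semaglutide mice at 16 weeks. The highest of these was mouse 7, the second-series library with skeletal muscle markers, and their part in it was not tested. With only the compared groups fitted, Pnpla2 passed as higher with chow reversal than with vehicle at 8 weeks (0.28, adjusted p = 0.037, edgeR). The largest differences of G0s2, 0.75 between semaglutide and chow (adjusted p = 0.064, edgeR) and 0.72 between semaglutide and chow reversal at 24 weeks (adjusted p = 0.091), missed the threshold, though the first passed in DESeq2 (adjusted p = 0.044). The first also passed in 3 of 15 fits that left out 1 mouse (adjusted p down to 0.013, edgeR). The second passed without chow reversal mouse 2 (adjusted p = 0.0090, edgeR). With only the compared groups, G0s2 was lower with semaglutide than with chow reversal at 8 weeks (−0.48, adjusted p = 0.032, edgeR).

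**Figure D5:**
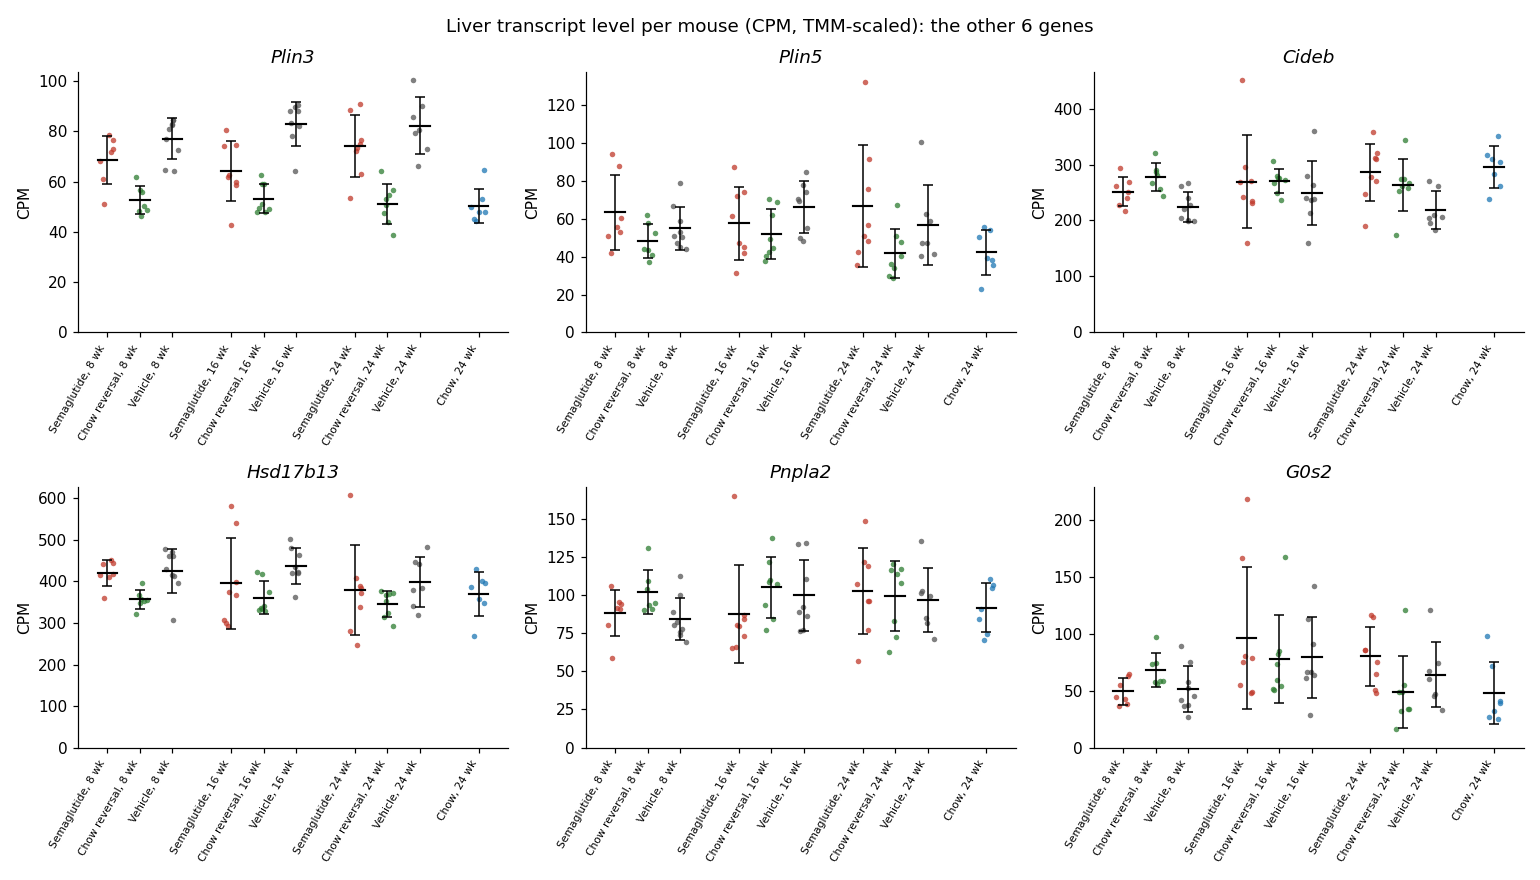
Level of Plin3, Plin5, Cideb, Hsd17b13, Pnpla2 and G0s2 in each liver (vertical axis, TMM-scaled CPM) by treatment and week; points are mice, lines the group mean and bars the SD. Plin3 is at 38.7 to 64.3 CPM in all chow reversal mice and at 64.3 to 101 CPM in all vehicle mice, and the other 5 genes overlap between all treatments.

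The lists that follow are read against the shares of all genes called in the same comparisons: 2.24%, 6.44% and 10.8% higher and 3.51%, 5.8% and 13.6% lower with semaglutide at 8, 16 and 24 weeks, and 14.2%, 12.1% and 16.98% higher and 17.9%, 16.2% and 19.1% lower with chow reversal. Of 26 other lipid droplet proteins tested, 0 passed at 8 weeks of semaglutide in edgeR (6 at an unadjusted p under 0.05 and 1 in DESeq2), 1 rose and 1 fell at 16 weeks and 3 rose and 3 fell at 24 weeks. Their median change on the log2 scale was −0.08, 0.01 and −0.07, against a median within 0.01 of 0 over all genes, and scaling to library totals turned the 24-week counts to 0 higher and 9 lower. With chow reversal 7, 7 and 8 rose and 3, 4 and 5 fell. Lpcat2, which makes phosphatidylcholine at the droplet surface, fell with semaglutide at 16 (−0.53) and 24 weeks (−0.82) and with chow reversal at all 3 times (−0.99, −1.02 and −1.75), and was 2.86 higher in vehicle than in chow-fed mice. Cav1, the caveolar coat protein, fell with semaglutide at 24 weeks (−2.13, SE 0.36, adjusted p = 1.1e-05, edgeR). Cavin1, its partner, had −0.45 there (adjusted p = 0.068), and fell with chow reversal at 16 (−0.47) and 24 weeks (−0.62). Hsd17b11, a paralog of Hsd17b13 on droplets, rose with semaglutide at 24 weeks (0.34) and fell with chow reversal at all 3 times (−0.50, −0.49 and −0.36).

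Of 16 other lipases and lipase regulators tested, 1, 5 and 5 rose and 1, 0 and 3 fell with semaglutide at 8, 16 and 24 weeks, and 5, 6 and 7 rose and 2, 1 and 2 fell with chow reversal. Hepatic lipase (Lipc) rose with semaglutide at each time (0.61, 0.50 and 0.91) and averaged 177 ± 40.9 CPM in semaglutide mice, 158 ± 43.6 CPM in chow reversal mice and 94.1 ± 12.9 CPM in vehicle mice at 24 weeks (SD, n = 8, 8 and 7). The hydrolases Aadac (0.65) and Ces1f (0.78) rose with semaglutide at 24 weeks and the lysosomal lipase Lipa fell (−0.37). Of 15 genes of triglyceride synthesis and export, 2, 2 and 3 rose and 1, 2 and 2 fell with semaglutide. Mogat1, a monoacylglycerol acyltransferase that mouse fatty liver switches on, fell with semaglutide at 8 (−1.81, SE 0.26, adjusted p = 1.7e-06, edgeR) and 16 weeks (−0.95), and with chow reversal at these times (−0.84 and −0.69). Dgat2, which makes triglyceride, rose with semaglutide at all 3 times (0.41, 0.37 and 0.55), as did Tm6sf2, which acts in VLDL export (0.57, 0.56 and 0.65). Mogat2, at 1.70 CPM or less in these group means, fell with semaglutide at 16 (−2.17) and 24 weeks (−2.56).

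Among 12 transcription factors known to act on these genes, Pparg fell with semaglutide at 8 (−0.56, adjusted p = 0.047) and 24 weeks (−0.57, adjusted p = 0.016, edgeR) and with chow reversal at 24 weeks (−0.56, adjusted p = 0.012), and was higher in vehicle than in chow-fed mice (0.84, SE 0.19, adjusted p = 0.00016, edgeR). It averaged 13.4 ± 5.96 CPM in semaglutide mice and 20.1 ± 4.82 CPM in vehicle mice at 24 weeks (SD, n = 8 and 7). Mlxipl, Hnf4a and Rxra rose with semaglutide at 8 and 24 weeks. In all, 3 of the 12 rose and 1 fell with semaglutide at 8 weeks and 6 rose and 1 fell at 24 weeks. At 16 weeks 0 passed in edgeR, with 3 at an unadjusted p under 0.05 and 1 in DESeq2.

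Markers of liver cell types were counted in the same comparisons. With semaglutide, hepatocyte markers rose (4, 6 and 9 of 10 at 8, 16 and 24 weeks, median 0.72 at 24 weeks), and macrophage markers fell (6 and 8 of 11 at 16 and 24 weeks, median −0.90 at 24 weeks), with Marco alone higher at 24 weeks. At 8 weeks 0 of 11 macrophage markers passed in edgeR, 3 had an unadjusted p under 0.05 and 0 passed in DESeq2. With chow reversal, hepatocyte markers rose (9, 8 and 10 of 10) and macrophage markers fell (8, 9 and 9 of 11, median −1.92 at 24 weeks). Summed macrophage markers at 24 weeks ranged from 315 to 711 CPM in semaglutide mice, from 95.7 to 456 CPM in chow reversal mice and from 577 to 786 CPM in vehicle mice. Stellate cell markers fell for 3 of 10 with semaglutide and 5 of 10 with chow reversal at 24 weeks, and summed to 336 to 516 CPM in semaglutide mice, 261 to 447 CPM in chow reversal mice and 436 to 602 CPM in vehicle mice. In whole liver, fewer cells of a type and less RNA per cell cannot be told apart. The part of these cell types in the changes of the perilipins and CIDE genes was not tested. The defining adipocyte markers were at or near 0: Adipoq was at 0 in 55 of 77 libraries, Plin1 in 62 and Lep in 68, and no call of Cidea, Cidec, Plin3 or Plin4 was lost without the 1 library that held them in quantity. Of the 8 adipocyte markers, Cfd and Fabp4, which macrophages and steatotic hepatocytes also express, were the 2 that could be tested. Both fell with semaglutide at 8 weeks and Fabp4 at 24 weeks, and Fabp4 fell with chow reversal at each time. The 8 summed to 8.91 to 13.8 CPM in semaglutide mice, 12.6 to 19.8 CPM in chow reversal mice and 21.1 to 41.8 CPM in vehicle mice at 8 weeks. The fit without 1 library does not bear on low levels of adipocyte RNA in the other libraries. The part of such RNA in the changes of the perilipins and CIDE genes was not tested, nor was the cell source of Cfd and Fabp4.

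The genes whose log2 levels were most like each member over the 77 libraries differed between members. For Cidea these were Mogat1 (r = 0.76, also 0.76 within groups) and Clstn3 (0.65 and 0.71). Cidec was nearest to Adgrv1 (0.82) and Tmem45b (0.81), and within groups to Pex11a (0.74) and Vnn1 (0.71). Plin4 was nearest to Synj2 (0.86) and Lrrc39 (0.85), and within groups to Pex11a (0.60), a peroxisome division factor, and Gpat3 (0.53). Plin2 was nearest to Smox (0.67) and Tubb6 (0.66), and within groups to Apoa4 (0.63) and Slc25a47 (0.62). Plin3 was nearest to Pld3 and Mapt (0.85 each), and within groups to Hs1bp3 (0.75) and Eml2 (0.69). Cideb had the highest values, with Cyp2d10 and Psmd3 (0.90 each), and within groups with Serpinf1 and Ptms (0.91 each). Pnpla2 was nearest to Lipe, the hormone-sensitive lipase that acts after it (0.78), and Dedd2 (0.74), and within groups to Fbxo31 (0.81) and Dedd2 (0.79). Plin5 was nearest to Ddx41 (0.75) and Fam131c (0.74), and within groups to Rtf2 (0.82) and Sgf29 (0.79). Hsd17b13 was nearest to Mospd1 (0.68) and Hsd17b6 (0.66), and within groups to Hsd17b6 (0.68) and Mpc1 (0.67). G0s2 was nearest to Eno3 (0.63) and Lgals4 (0.57), and within groups to Slc22a5 (0.60) and Slc25a34 (0.55). Mice of 1 group share their treatment and genes share the scaling, so these likenesses are descriptions.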

How the data were processed

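Mouse liver RNA was sequenced from directional libraries. Per the labels' processing notes, the authors used STAR 2.7.3a, Salmon 1.2.0, FastQC 0.11.9, Picard and DESeq2 on GRCm38, and they deposited estimated counts per Ensembl gene. Of these values 7.55% were not whole, and counts were rounded here. Gene symbols came from GENCODE M21 on GRCm38 (55227 of 55487 IDs matched, and the other 260 held 0.0155% of counts). The annotation release and strand setting used by the authors are not given in the sources used here.

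Groups followed the labels. edgeR 4.0.16 (R 4.3.3, limma 3.58.1) was fitted to all 77 libraries and 10 groups together with TMM factors (0.793 to 1.31), filterByExpr by group (14904 genes kept), a quasi-likelihood test and Benjamini-Hochberg adjustment over all genes tested, with a threshold of 0.05. The procedure was tested on simulated data. CPM are TMM-scaled, logs used a prior count of 2, and 95% intervals were taken from the SE with the normal quantile. No libraries were identical. The 10 genes and all lists were chosen with earlier results of these data known. Named genes were all 10 members, the 4 genes of each list with the smallest p when the semaglutide effects at the 3 times were tested together, plus the 2 genes (members and predicted genes left out) most correlated with each member on log2 CPM over all libraries and the 2 most correlated within groups. Alternatives were DESeq2 1.42.0, RLE factors, scaling to library totals, no filter, only the compared groups, leaving out the second series, sets of library numbers as covariate, and, chosen after seeing the data, leaving out each library in turn and the library with adipocyte transcripts. Tables and plots used Python 3.11.15, pandas 2.3.3 and numpy 2.4.6. Promoter sequences came from RefSeq, GRCm38.p6.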

Additional observations from a re-analysis of the deposited data

Results flagged for a closer look

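Of 100 sets of values (10 genes in 10 groups), 10 held a mouse far from the rest of its group by Dixon's criterion, which chance meets in about 1 of 20 sets. Plin2 stood at 1510 CPM in chow reversal mouse 8 at 24 weeks, the library with adipocyte transcripts, and the next value was 739 CPM. Plin4 stood at 110.1 CPM in semaglutide mouse 1 at 8 weeks (next 53.8). Plin3 stood at 64.5 CPM in chow-fed mouse 4 (next 53.03), and Plin5 at 101 CPM in vehicle mouse 3 at 24 weeks (next 62.6). Semaglutide mouse 4 at 16 weeks was highest in both Cideb, at 451 CPM (next 296), and Pnpla2, at 165 CPM (next 87.1). Hsd17b13 stood at 307 CPM in vehicle mouse 6 at 8 weeks, the lowest of its group (next 397), and at 609 CPM in semaglutide mouse 8 at 24 weeks, a second-series library (next 409). G0s2 stood apart in mouse 2 of chow reversal at 16 weeks, at 167 CPM (next 84.8), and in mouse 2 of chow reversal at 24 weeks, at 121 CPM (next 55.04). For none of the 10 genes did a treatment effect differ between 8 and 24 weeks past the threshold.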

How the results depend on the processing

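No paired analysis was possible because each mouse was killed at 1 time and replicate numbers were given in sample order, so that they only name samples. Sets of library numbers as a covariate ended the calls of Plin2 and Plin3 at 16 weeks and Plin4 at 24 weeks of semaglutide and of Cideb at 8 weeks of chow reversal, and let Hsd17b13 pass as lower at 16 weeks of semaglutide and at 8 and 16 weeks of chow reversal. Over 8 alternatives, 1137 of 1200 member values stayed on their side of the threshold (50 of them, none called, with another sign), 25 missed it, 38 newly passed it and 0 changed sign where a call was made, and the cause was not tested. Counts of genes past the threshold moved as follows. For semaglutide over vehicle, 5 became 3 at 16 weeks without the second series and 5 became 3 at 24 weeks with no filter. For chow reversal over vehicle, 5 became 3 at 8 weeks with no filter. With scaling to library totals 3 became 6 at 16 and at 24 weeks, and Plin2, Plin5 and Hsd17b13 were the genes gained. For semaglutide over chow reversal, 2 became 5 at 8 weeks and 3 became 1 at 24 weeks with only the compared groups fitted, and 1 became 2 at 16 weeks with library totals, without the second series and with library-number sets. Leaving out 1 mouse gave 2 to 4, 3 to 5 and 3 to 5 genes for semaglutide over vehicle at 8, 16 and 24 weeks, 3 to 6, 3 to 4 and 2 to 4 for chow reversal over vehicle, 1 to 2, 1 to 2 and 2 to 4 for semaglutide over chow reversal, 5 to 6 for vehicle over chow, 4 to 6 for semaglutide over chow and 3 to 3 for chow reversal over chow. Of 44 calls, 31 held in every such fit. Among those lost were Plin2 with semaglutide at 8 weeks without semaglutide mouse 4 (−0.55, adjusted p = 0.060) and Plin2 in vehicle over chow without chow-fed mouse 5 (0.40, adjusted p = 0.063, edgeR). Scaling to library totals changed the calls over all genes from 1604 higher and 2021 lower to 510 higher and 4340 lower for semaglutide at 24 weeks, and from 3849 higher and 3272 lower to 7776 higher and 887 lower for vehicle over chow, where Plin5, Hsd17b13, Pnpla2 and G0s2 then also rose. With this scaling the calls were 154 higher and 1054 lower (334 and 523 with TMM) and 357 and 2367 (960 and 864) for semaglutide at 8 and 16 weeks, 667 and 5936 (2117 and 2665), 593 and 5069 (1797 and 2410) and 687 and 5453 (2530 and 2849) for chow reversal at 8, 16 and 24 weeks, 1296 and 231 (525 and 393), 1416 and 281 (930 and 530) and 1628 and 506 (1158 and 1299) for semaglutide over chow reversal, and 4737 and 591 (2665 and 2014) for semaglutide over chow. Low counts limit Cidea in chow-fed mice (0 to 19 counts) and in semaglutide mice at 8 weeks (2 to 59).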
